A study of Mus musculus with 24 samples.

Results

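Of the 24 RNA-seq libraries of mouse intestinal epithelium in the study, 9 came from mice aged 4 months, and these 9 fell into 2 states of the circadian clock. In the colon (COL), the upper part (USI) and the lower part (LSI) of the small intestine alike, replicate C held high Dbp and low Arntl, whereas replicates A and B held low Dbp and high Arntl. The 3 C libraries were therefore set against the 6 A and B libraries within each section. The libraries were chosen by these values, so every difference between C and A and B at 4 months is given as a description, with no test. The 9 libraries at 12 months and the 6 libraries at 24 months played no part in the choice, and the comparison between these ages was tested. The gene lists read in it were, however, chosen with earlier results of these data known.

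All groups were untreated Lgr5-EGFP-IRES-CreERT2 mice, which carry EGFP and an inducible Cre under the control of the stem cell gene Lgr5. Crypts were released from each section, dissociated and, for RNA, pooled without sorting, so a library holds stem, progenitor and differentiated cells in unknown shares, and fewer cells of a type cannot be told apart from less RNA per cell. There were 3 libraries per section at 4 and at 12 months and 2 per section at 24 months, named A, B and C. The sources used here give neither the number of mice behind each RNA pool nor the hour of collection nor the feeding state, and do not say whether the same letter in 3 sections stands for the same mice, so the spread between libraries may be technical. The 9 libraries at 4 months held 35312446 to 38203709 counts.

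Section markers followed the labels. Car1, a colonic carbonic anhydrase, had 4470 to 8055 CPM, counts scaled to the library's size in the 3 colon libraries at 4 months and at most 3.31 CPM in the other 6. Fabp6, the ileal bile acid binding protein, had 514 to 1076 CPM in the LSI and at most 0.951 CPM in the USI. The count columns of colon B and LSI C are headed by codes of one and the same form, and these libraries had 4470 and 3.31 CPM of Car1 and 3.64 and 1076 CPM of Fabp6. Reads on the Y chromosome at 4 months came to 4915 to 7301 counts in each B library and to at most 12 counts in each A and C library, so that B differed from A and C in the sex that these counts show, which was the same in A and C. Values without colon B and LSI C are given where counts of gene groups are described.

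The circadian clock of mammalian cells is a loop of transcription. BMAL1 (the product of Arntl) pairs with CLOCK or NPAS2 and activates genes through E-box sequences, among them the Per and Cry genes, whose products then inhibit this activation, and the Nr1d genes, whose products REV-ERB alpha and beta repress Arntl and Npas2 through ROR elements. The outputs Dbp, Tef and Hlf encode activators of the PAR bZIP family that bind D-box sequences, whereas Nfil3 encodes a repressor of the same sequences. In the intestine the clock runs in the epithelium itself and is known to accompany daily rhythms of nutrient transport and cell division.

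These 3 kinds of element were looked for in promoters of clock genes, and windows of 5 genes that hold one are shown. The windows below run from 250 bases before to 50 bases after a transcription start in RefSeq (build GRCm38.p6) and are written along the gene's strand in lower case. Capitals mark the E-box CACGTG, the D-box TTATGTAA or TTATGCAA and the ROR element TAGGTCA, on either strand. The first window belongs to Gm129, now called Ciart, a repressor of the clock, at chr3:95882179-95882478 on the minus strand, and is shown for its 3 E-boxes, which start 116, 58 and 44 bases before the start.
Gm129: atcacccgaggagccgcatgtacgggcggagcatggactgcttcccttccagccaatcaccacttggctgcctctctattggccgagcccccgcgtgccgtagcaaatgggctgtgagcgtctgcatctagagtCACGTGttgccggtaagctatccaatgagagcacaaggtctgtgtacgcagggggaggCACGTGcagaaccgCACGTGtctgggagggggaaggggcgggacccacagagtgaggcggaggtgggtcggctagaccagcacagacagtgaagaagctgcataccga
The second belongs to Per1, at chr11:69098699-69098998 on the plus strand, and is shown because it holds an E-box 166 bases and a D-box 24 bases before the start.
Per1: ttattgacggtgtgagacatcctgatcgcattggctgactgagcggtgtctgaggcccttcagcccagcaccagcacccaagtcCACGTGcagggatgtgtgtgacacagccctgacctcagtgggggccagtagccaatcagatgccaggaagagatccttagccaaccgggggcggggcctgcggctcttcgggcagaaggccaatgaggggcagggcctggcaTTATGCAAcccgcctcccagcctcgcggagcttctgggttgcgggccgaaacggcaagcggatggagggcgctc
Per3, at chr4:151044616-151044915 on the minus strand, is shown for 2 D-boxes, 205 and 158 bases before the start.
Per3: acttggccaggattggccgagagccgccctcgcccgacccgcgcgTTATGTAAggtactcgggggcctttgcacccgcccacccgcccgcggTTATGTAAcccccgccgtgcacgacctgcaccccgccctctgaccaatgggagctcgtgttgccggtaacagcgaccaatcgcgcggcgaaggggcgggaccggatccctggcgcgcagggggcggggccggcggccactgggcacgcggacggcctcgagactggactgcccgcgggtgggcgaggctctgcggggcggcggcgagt
The last windows belong to Nfil3, at chr13:52980990-52981289 on the minus strand, and Arntl, at chr7:113207261-113207560 on the plus strand, which were both lower in C. The element of Nfil3 lies 12 bases before the start on the opposite strand, so that it reads TGACCTA, and that of Arntl lies 31 bases into the transcript.
Nfil3: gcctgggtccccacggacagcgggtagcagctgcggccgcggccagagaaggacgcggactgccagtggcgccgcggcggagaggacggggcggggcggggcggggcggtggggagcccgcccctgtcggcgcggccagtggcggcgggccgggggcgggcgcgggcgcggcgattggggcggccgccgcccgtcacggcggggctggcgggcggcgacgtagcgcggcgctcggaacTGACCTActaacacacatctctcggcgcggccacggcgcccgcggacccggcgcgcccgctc
Arntl: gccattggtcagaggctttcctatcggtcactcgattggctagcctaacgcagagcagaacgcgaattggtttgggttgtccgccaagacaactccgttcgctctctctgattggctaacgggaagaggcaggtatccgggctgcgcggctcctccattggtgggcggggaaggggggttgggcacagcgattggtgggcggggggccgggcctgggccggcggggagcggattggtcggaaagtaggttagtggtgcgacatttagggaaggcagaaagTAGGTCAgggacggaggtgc
Of all 32851 promoter windows in the reference, 7.15% held CACGTG, 1.66% a D-box of these letters and 2.61% TAGGTCA. A window was found for 17 of the 20 genes of the activator, repressor and PAR bZIP lists, and 5 of them held CACGTG, 2 a D-box and 2 TAGGTCA. A gene was counted if any of its windows held the letters, and some genes have several windows. These counts per gene are therefore not like the shares per window. Cry1 and Bhlhe41 were among the genes with CACGTG, and for neither did C lie on the same side of A and B in all 3 sections. The windows of Dbp, Nr1d1, Nr1d2, Npas2, Cry2 and Hlf held none of these letters, nor did the other window of Arntl, which says nothing about sites outside them. A match is a run of letters and was not tested as a binding site.

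Dbp and Arntl, the genes by which the libraries were chosen, are described first. At 4 months Dbp (mm9 chr7:52960458-52965525) had 2.31 CPM in colon A, 5.32 in colon B and 54.3 in colon C. In the USI it had 1.04, 0.713 and 43.1 CPM in A, B and C, and in the LSI 2.51, 0.636 and 51.9 CPM. The C libraries did not overlap with the others in any section, and the lowest C library, at 43.1 CPM, stood next to colon B, the highest of the others, at 5.32 CPM. The difference in log2 CPM between C and the mean of A and B was 3.93 in the colon, 5.55 in the USI and 5.29 in the LSI, which averages 4.92 ± 0.87 (SD over the 3 sections) or 30.3-fold. Ranked by the smallest difference among the sections, Dbp came first of the 2535 genes that were higher in C. The gaps in Dbp and Arntl were fixed by the choice of libraries, so this rank is not a finding.

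Arntl ran the other way. Arntl (mm9 chr7:120350979-120457636) had 75.0 and 55.5 CPM in colon A and B against 25.2 in colon C, 57.0 and 59.9 against 21.6 in the USI, and 56.1 and 66.2 against 18.3 in the LSI. All 6 A and B libraries lay above all 3 C libraries, with 55.5 CPM as the lowest of the former and 25.2 as the highest of the latter, and the mean difference in log2 CPM was -1.51 ± 0.20. The same 2 levels recurred in the older libraries, as the plot of Dbp against Arntl shows. At 12 months Dbp ranged from 23.3 to 50.3 CPM and Arntl from 16.2 to 27.6 CPM, whereas at 24 months Dbp ranged from 1.02 to 2.37 CPM and Arntl from 62.5 to 75.7 CPM. The C libraries at 4 months thus lay on the side of the 12-month libraries and the A and B libraries on the side of the 24-month libraries.

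**Figure D1:**
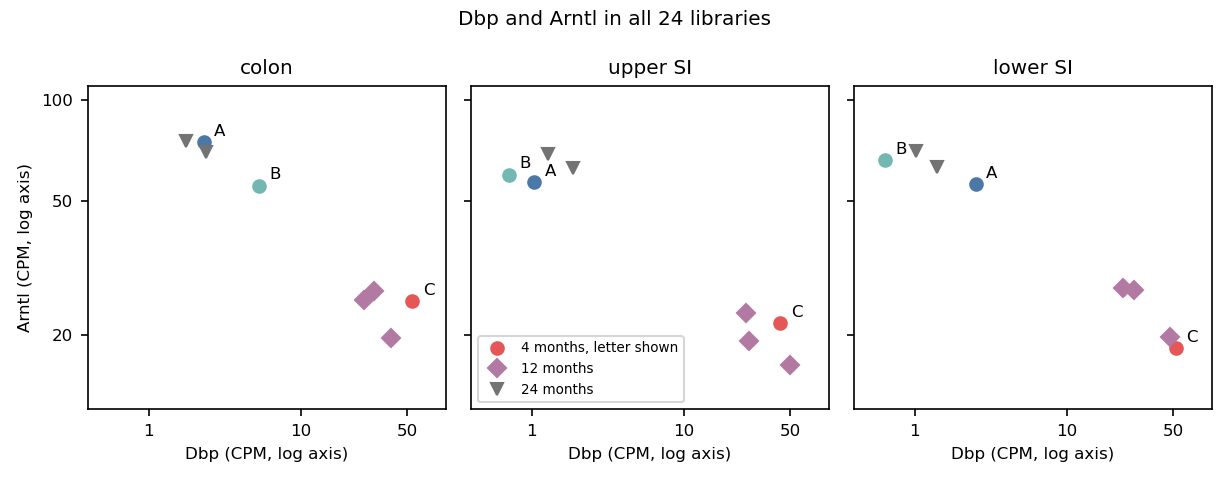
Arntl (y axis) against Dbp (x axis), both in CPM on log axes, in each of the 24 libraries by section, with a point per library and the replicate letter beside those of 4 months. The C libraries at 4 months lie with the 12-month libraries at 23.3 to 54.3 CPM of Dbp, and the A and B libraries with the 24-month libraries at 0.636 to 5.32 CPM.

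A gene was counted as higher or lower in C where C lay above or below both A and B in all 3 sections. Of the 17491 genes tested, 14.5% were higher and 17.6% lower by this count, and the share of members in a list is to be read beside these figures. Differences were wider among the higher genes, of which 717 had a mean difference of at least 1 in log2 CPM and 136 of at least 2, than among the 3084 lower genes, of which 59 and 3 did. The split of calls depended on scaling: 45.1% of the calls were higher with TMM factors, and 27.4% with library totals alone, which moved the median difference of all genes from -0.02 to -0.13.

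For the test in libraries outside the choice, the 9 libraries at 12 months were compared with the 6 at 24 months, averaged over sections (edgeR's quasi-likelihood test, two-sided, Benjamini-Hochberg adjustment over 17491 genes). In this comparison 550 genes (3.14%) were higher and 363 (2.08%) lower at 12 months at an adjusted p under 0.05, and age and clock state cannot be told apart in it. It is used only to read the genes of the 4-month description in other libraries. The fit treated the 15 libraries as independent. If a letter stands for the same mice in 3 sections, they are not, and the p-values given below may be too small. With counts summed over the sections of a letter, 25 genes were higher and 16 lower at 12 months.

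Among the 10 clock repressors, 8 were higher in C and none lower, with a median difference of 1.56 in log2 CPM against -0.02 for all genes, and 9 of the 10 were higher at 12 months than at 24 months. Per1, Per2 and Per3 encode the period proteins. Per2 had 15.1, 16.7 and 33.6 CPM in colon A, B and C, 10.2, 9.72 and 38.6 in the USI, and 17.2, 15.7 and 52.6 in the LSI. Per3 had 18.4, 17.2 and 58.7 CPM in the colon, 7.23, 5.75 and 28.4 in the USI, and 6.38, 3.92 and 35.1 in the LSI. For both genes all C libraries lay above all others, with mean differences of 1.57 ± 0.45 and 2.21 ± 0.54. Per1, which answers to glucocorticoids and other signals as well as to the clock, had the smallest difference of the 3, at 0.79 ± 0.35, with 18.9, 31.4 and 54.2 CPM in the colon, 23.1, 30.9 and 36.8 in the USI, and 21.5, 22.0 and 36.5 in the LSI. At 12 against 24 months the log2 fold changes were 1.86 ± 0.19 (SE) for Per1 (adjusted p = 0.00017), 1.6 ± 0.20 for Per2 (adjusted p = 0.000863) and 1.96 ± 0.16 for Per3 (adjusted p = 1.57e-05).

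Nr1d1 and Nr1d2, which encode REV-ERB alpha and beta, were likewise higher in every C library than in any A or B library. Nr1d1 had 67.9, 91.7 and 219 CPM in colon A, B and C, 71.2, 40.2 and 159 in the USI, and 95.7, 26.2 and 214 in the LSI. Nr1d2 had 36.0, 57.1 and 113 CPM in the colon, 33.1, 31.8 and 89.8 in the USI, and 28.6, 21.6 and 108 in the LSI. Their mean differences were 1.71 ± 0.33 and 1.63 ± 0.43. Between 12 and 24 months they differed by 1.58 ± 0.18 (SE, adjusted p = 0.000468) and 1.66 ± 0.12 (adjusted p = 3.5e-06).

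Gm129, with its 3 E-boxes shown above, was a low gene with a wide difference. It had 0.399, 1.20 and 12.7 CPM in colon A, B and C, 1.23, 0.856 and 6.32 in the USI, and 0.773, 1.27 and 4.33 in the LSI, a mean difference of 2.90 ± 1.05 that was widest in the colon. At 12 months it rose over 24 months by 3.21 ± 0.17 (SE, adjusted p = 6.34e-07).

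The cryptochromes parted. Cry2 was higher in C in each section, with 14.9, 13.9 and 32.0 CPM in colon A, B and C, 4.17, 4.59 and 11.6 in the USI, and 6.46, 3.42 and 20.2 in the LSI. Cry1, whose transcript peaks later in the cycle than that of Cry2, had 13.8, 10.7 and 8.52 CPM in the colon, where C was lowest, and 4.72, 7.20 and 10.7 CPM in the USI, where C was highest. In the LSI Cry1 had 8.75, 11.3 and 11.5 CPM. Bhlhe40, which encodes the repressor DEC1, was higher in C by a small margin of 0.35 ± 0.15, and its relative Bhlhe41 was at 0.0532 to 0.601 CPM and overlapped.

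**Figure D2:**
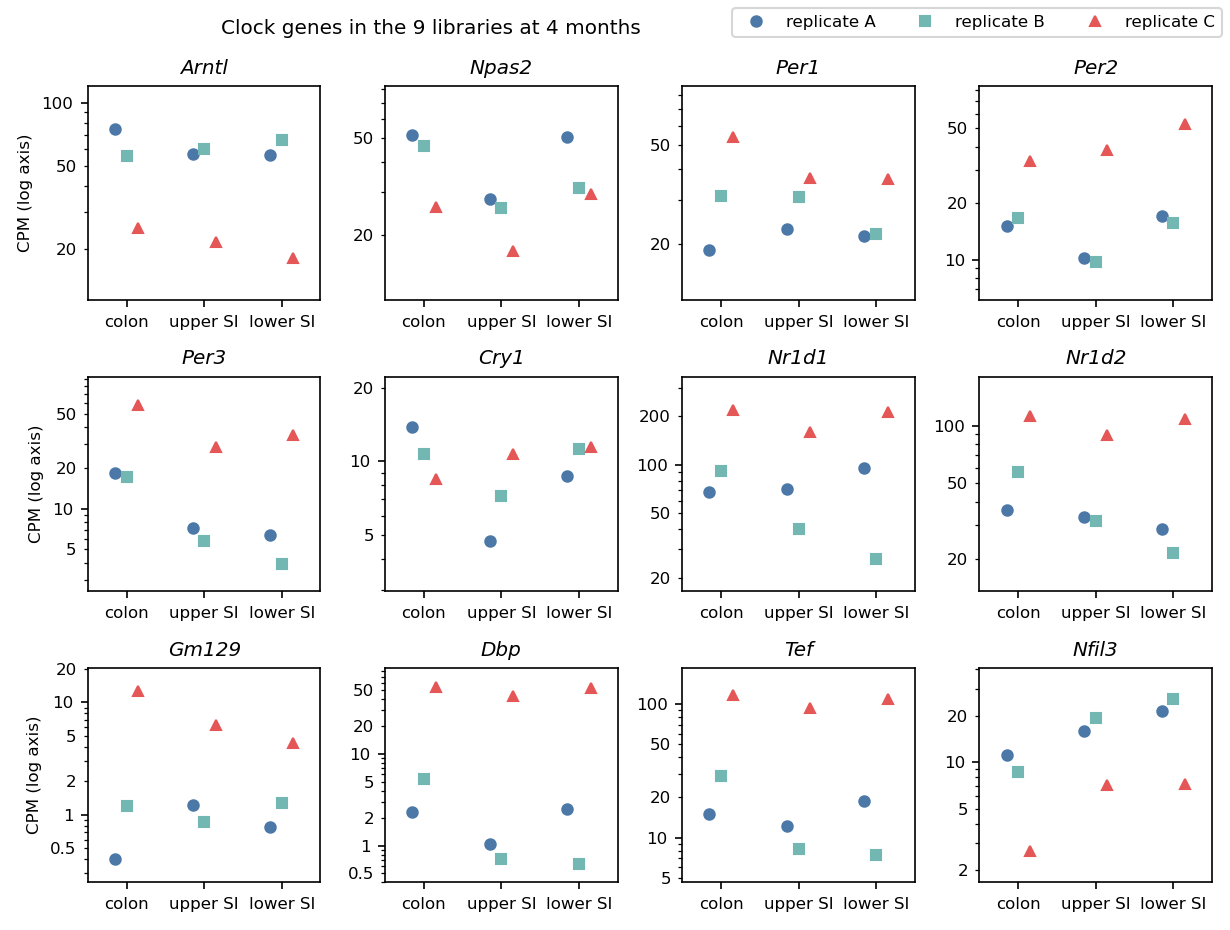
CPM (log axes) of 12 clock genes in the 9 libraries at 4 months, with a point for each of replicates A, B and C in the colon, upper and lower small intestine (SI). Replicate C lies below A and B for Arntl, Npas2 and Nfil3 and above both for the other genes shown except Cry1, for which the order differs between sections.

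Of the 6 clock activators, 2 were lower in C, 2 higher and 2 overlapped. The lower ones were Arntl and Npas2, which encodes a partner of BMAL1. Npas2 had 51.3 and 46.2 CPM in colon A and B against 26.1 in C, 28.0 and 25.8 against 17.1 in the USI, and 50.6 and 31.2 against 29.3 in the LSI, a mean difference of -0.66 ± 0.23. Both fell at 12 months relative to 24 months, Arntl by 1.59 ± 0.10 on the log2 scale (SE, adjusted p = 6.34e-07) and Npas2 by 1.23 ± 0.07 (adjusted p = 6.34e-07). Clock itself stayed within 73.5 to 122 CPM in the 9 libraries and its sections did not share a direction. Rora, which encodes a nuclear receptor that binds the same elements as REV-ERB, had 1.52, 1.37 and 2.66 CPM in colon A, B and C, 0.663, 1.07 and 1.29 in the USI, and 1.74, 1.09 and 3.15 in the LSI, and was higher in C by 0.87 ± 0.29. Its log2 fold change between 12 and 24 months was 0.52 ± 0.22 (SE, adjusted p = 0.172), which did not pass.

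Tef followed Dbp. It had 15.0, 29.0 and 116 CPM in colon A, B and C, 12.3, 8.2 and 93.2 in the USI, and 18.9, 7.42 and 108 in the LSI, a mean difference of 2.95 ± 0.42 with no overlap of libraries. Nfil3, the repressor of the D-box, ran opposite to the activators, with 11.2, 8.63 and 2.66 CPM in the colon, 16.0, 19.5 and 7.08 in the USI, and 21.4, 25.5 and 7.18 in the LSI. Its mean difference was -1.62 ± 0.28. Between 12 and 24 months Dbp rose by 4.38 ± 0.25 (SE, adjusted p = 6.34e-07), Tef rose by 2.5 ± 0.15 (adjusted p = 6.34e-07) and Nfil3 fell by 0.86 ± 0.15 on the log2 scale (adjusted p = 0.00883).

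Hlf was the member of this family that varied most with section. In the USI it had 1.19, 0.380 and 13.8 CPM in A, B and C, and in the LSI 1.22, 0.530 and 10.03 CPM. In the colon it was near the limit of detection in all 3 libraries, with 0.0532, 0.204 and 0.113 CPM, and C lay between A and B. Over all sections Hlf rose at 12 against 24 months by 3.06 ± 0.50 (SE, adjusted p = 0.00574).

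Usp2, a deubiquitinating enzyme that acts on clock proteins and is counted with the genes of their turnover, was higher in every C library than in any A or B library. It had 19.3, 21.9 and 44.6 CPM in colon A, B and C, 33.2, 31.0 and 80.9 in the USI, and 39.8, 37.6 and 81.1 in the LSI. Of the 9 other rhythmic outputs 3 were higher and 2 lower in C. Ccrn4l, which encodes the deadenylase Nocturnin, Coq10b and Por, the electron donor of cytochromes P450, were higher in C by 0.94 ± 0.15, 0.85 ± 0.21 and 1.03 ± 0.34. Lonrf3 and Dtx4 were lower, with differences of -1.19 ± 0.12 and -0.59 ± 0.18. Of these 6 genes, Usp2, Ccrn4l and Coq10b rose and Dtx4 fell at 12 against 24 months, whereas Por (adjusted p = 0.0611) and Lonrf3 (adjusted p = 0.143) did not pass. The fall of Dtx4 passed in 7 of 27 alternative settings, against 24 for Usp2 and Ccrn4l and 21 for Coq10b.

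**Figure D3:**
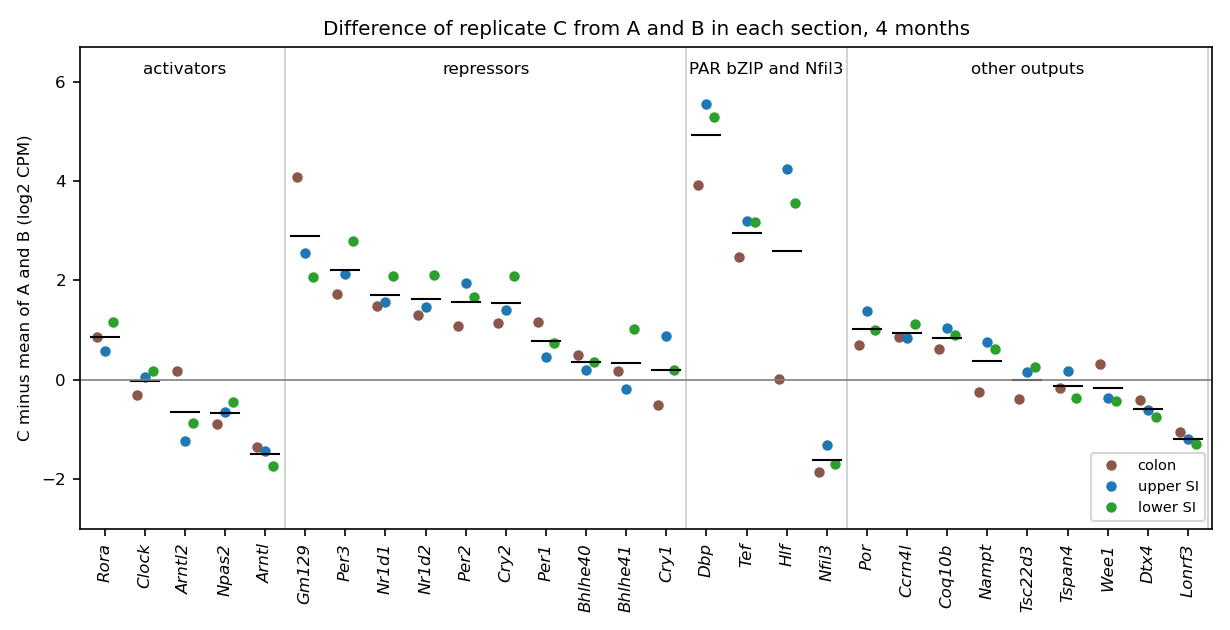
Difference in log2 CPM between replicate C and the mean of A and B at 4 months, with a point for each section and a bar for their mean, for 5 of the 6 activators, the repressors, the PAR bZIP genes with Nfil3, and other outputs. Dbp has the widest mean difference (4.92), Hlf is near 0 in the colon alone, and Arntl and Nfil3 lie between -1.31 and -1.86 in all 3 sections.

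The kinases and ligases that set the stability of clock proteins had a median difference of -0.06, with 3 of 12 genes higher and 3 lower in C, and Usp2 was the member that rose between the ages. Csnk1d, a kinase of the period proteins, had 144 to 168 CPM in all 9 libraries and overlapped. The members lower in C included Timeless (-0.59 ± 0.08) and Tipin (-0.51 ± 0.14), whose products act at DNA replication forks.

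Over all 41 clock-list genes, 18 were higher and 8 lower in C, where 14.5% of all genes were higher and 17.6% lower. The count of lower genes is thus near the share over all genes. At 12 against 24 months 15 rose (3.14% of all genes did) and 4 fell (2.08%). The direction was shared by 13 of the higher and 4 of the lower genes, none was called in opposite directions, and 9 were called in C without passing between the ages. Bhlhe41 and Hlf passed between the ages but overlapped at 4 months. The section-by-age interaction, added after the data were seen, called none of the 17491 genes (0% at an adjusted p under 0.05, 1276 at an unadjusted p under 0.05, edgeR's quasi-likelihood test), and the lowest adjusted p among the clock-list genes was 0.329, for Cry1.

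**Figure D4:**
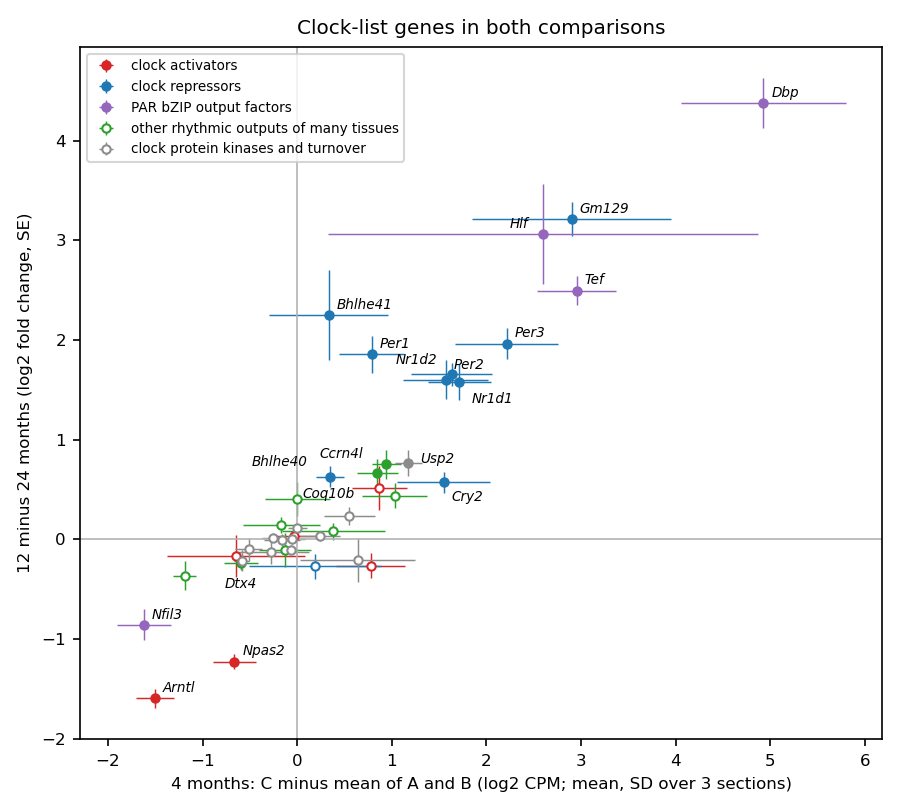
Log2 fold change between 12 and 24 months with its SE (y axis) against the difference in log2 CPM between C and A and B at 4 months with its SD over sections (x axis) for the 41 clock-list genes, coloured by list. Filled points passed an adjusted p of 0.05 between the ages, and all filled points lie above 0 on both axes or below 0 on both, from Arntl at -1.51 and -1.59 to Dbp at 4.92 and 4.38.

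The tested comparison has limits. With all 24 libraries in one fit, whose spread then includes the difference between C and A and B at 4 months, the adjusted p rose to 0.053 for Dbp, 0.0545 for Tef and 0.0554 for Nr1d1, and with counts summed over the sections of a letter 8 clock-list genes rose and 3 fell. Y-linked counts were high in the 24-month B libraries, and without these libraries 8 clock-list genes rose and 2 fell.

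Outside the clock, absorptive genes of the small intestine stood out among the genes higher in C. Of 11 markers of small-intestinal enterocytes, the absorptive cells of the villus, 10 were higher in C, with a median difference of 2.34. The per-section medians were 1.02 in the colon, 3.51 in the USI and 2.39 in the LSI. Apoa4, an apolipoprotein of chylomicrons, had 76.5, 25.6 and 1510 CPM in USI A, B and C and 129, 43.5 and 544 CPM in the LSI, but at most 1.5 CPM in any colon library. Apoa1, another apolipoprotein, had 171, 141 and 3049 CPM in the USI and 2724, 389 and 5987 CPM in the LSI, so that LSI A lay far above LSI B. Lct, the lactase of the brush border, had 92.6, 45.2 and 1302 CPM in the USI and 643, 87.4 and 1536 CPM in the LSI. In the LSI the A library thus lay between B and C for these genes.

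At 12 against 24 months 4 of the 11 markers rose, among them Apoa1 by 1.68 ± 0.41 (SE, adjusted p = 0.0327), Lct by 1.99 ± 0.50 (adjusted p = 0.0364) and Sis, the sucrase-isomaltase, by 1.28 ± 0.30 (adjusted p = 0.0289). These calls were not stable: Apoa1 passed in 15 and Lct in 14 of 27 alternative settings, with fold changes of 0.49 to 2.05 and 0.77 to 2.27 on the log2 scale. Apoa4, at 1.5 ± 0.54 (adjusted p = 0.113), and Fabp1, a fatty acid binding protein, at 0.50 ± 0.39 (adjusted p = 0.463), did not pass.

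Transporters of nutrients and bile acids were described by the same pattern. Of 19 genes, 16 were higher and 1 lower in C, with a median of 1.57 and section medians of 0.61 in the colon, 2.36 in the USI and 1.72 in the LSI. Slc15a1, the peptide transporter PEPT1, had 31.7, 35 and 92.8 CPM in colon A, B and C, 18.2, 15.6 and 477 in the USI, and 308, 43.9 and 1200 in the LSI. Slc2a2, the glucose transporter GLUT2, was at 0.153 to 0.226 CPM in the colon and had 9.79, 6.11 and 273 CPM in the USI and 32.7, 6.73 and 184 CPM in the LSI. Slc2a5, the fructose transporter GLUT5, and Slc6a19, a neutral amino acid transporter, had mean differences of 2.59 ± 1.17 and 3.03 ± 1.47. At 12 months 7 of the 19 rose and 1 fell, Slc15a1 by 1.10 ± 0.23 (SE, adjusted p = 0.0175) and Slc2a5 by 1.09 ± 0.20 (adjusted p = 0.00939).

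Ranked by the smallest section difference, the 12 genes outside the clock lists that were highest in C were Enpp7, Creb3l3, Apoa4, Apoa1, Gm10768, Lct, Abcc2, Fabp1, 2010109I03Rik, Cidec, Plb1 and Ggt1. Enpp7, the alkaline sphingomyelinase of the brush border, had 7.75, 15.8 and 282 CPM in USI A, B and C and 337, 50.6 and 1092 CPM in the LSI. Creb3l3, a transcription factor of lipid metabolism in liver and intestine, had 1.41, 0.611 and 6.73 CPM in the colon, 24.0, 21.6 and 240 in the USI, and 94.1, 16.3 and 273 in the LSI. Plb1, a brush border phospholipase, had 621, 39.2 and 1373 CPM in the LSI and at most 7.75 CPM in the other sections. Of the 12, 5 rose at 12 against 24 months, namely Apoa1, Gm10768, Lct, Abcc2 and Plb1, and 7 did not pass. Among 19 targets of fasting and PPAR-alpha, 7 were higher and 1 lower in C, but the median was 0.18, and none passed between the ages (2 at an unadjusted p under 0.05 with edgeR, 1 call with DESeq2).

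Markers of other differentiated cells differed less. Of 6 tuft cell markers, which belong to chemosensory cells, 5 were higher in C with a median of 0.39, among them Trpm5 (0.66 ± 0.18), a cation channel of taste signalling, but with library totals alone 2 were. Krt20 and Vil1, markers of differentiated epithelium, were higher in C, by 0.38, 2.83 and 1.47 in the colon, USI and LSI for Krt20. They belong to a list of 10 general epithelial markers, of which 2 were higher and 2 lower in C, with a median of 0.05. Of 9 goblet cell markers 2 were higher and 1 lower, of 12 enteroendocrine markers 3 were higher and 1 lower, and of 9 Paneth cell markers all overlapped. The Paneth markers divided by section, with medians of 0.88 in the colon, -0.90 in the USI and -0.16 in the LSI. The tuft, goblet, enteroendocrine and Paneth lists held no gene that passed between the ages. Of the goblet and enteroendocrine markers 2 and 3 had an unadjusted p under 0.05 with edgeR. DESeq2 called 1 goblet fall and 1 enteroendocrine rise, and edgeR's likelihood ratio test called 1 enteroendocrine rise. Of the 9 Paneth markers 6 had an unadjusted p under 0.05 with edgeR, and their median between the ages was 0.98. For these 9, edgeR's likelihood ratio test called 2 rises and DESeq2 0.

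Genes of the cell cycle were lower in C by small amounts and in nearly every section. Of 21 S phase genes, 18 were lower in C, with a median of -0.60, and of 21 genes of G2 and mitosis 17 were lower, with a median of -0.52. Mcm5, a subunit of the replicative helicase, had 54.4, 53.9 and 32.5 CPM in colon A, B and C, 137, 149 and 81.4 in the USI, and 91.1, 132 and 62.9 in the LSI. Top2a, the topoisomerase of dividing cells, had 185, 172 and 121 CPM in the colon, 486, 528 and 322 in the USI, and 316, 460 and 258 in the LSI. In both genes C was the lowest library of each section. E2f7 and E2f8, the atypical E2F repressors that rise in S phase, were lower by -0.81 ± 0.08 and -0.73 ± 0.04. Dnmt1, the maintenance DNA methyltransferase, which is made in S phase, differed by -0.59 ± 0.13 and Dnmt3b, a de novo methyltransferase, by -0.46 ± 0.06, while Tet2, which oxidises methylcytosine, was higher by 0.45 ± 0.08. None of the 42 cell cycle genes passed between 12 and 24 months (5 and 2 at an unadjusted p under 0.05 with edgeR, none with DESeq2), where their medians were -0.09 and -0.07.

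The crypt markers divided by section. Stem cell markers had medians of -0.76 in the USI and -0.51 in the LSI, where all 13 were below the mean of A and B, but 0.12 in the colon, where 8 were above it. Olfm4, which marks stem cells of the small intestine, had 4503, 5217 and 2438 CPM in USI A, B and C and 2077, 2708 and 1415 in the LSI. Smoc2 was lower in all 3 sections, with 51.1, 54.6 and 39.7 CPM in the colon, 262, 238 and 149 in the USI, and 125, 143 and 89.1 in the LSI. Only 4 of the 13 were therefore counted as lower in C, and 1 rose and 1 fell between the ages.

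The cytosolic heat shock genes were among the lowest in C. Hspa1a and Hspa1b encode the inducible HSP70. Hspa1a had 16.3, 74.0 and 2.38 CPM in colon A, B and C, 3.39, 70.9 and 1.18 in the USI, and 1.16, 43.5 and 0.240 in the LSI. Hspa1b had 43.0, 206 and 12.2 CPM in the colon, 10.95, 213 and 6.91 in the USI, and 4.80, 128 and 2.64 in the LSI. For both genes the B libraries stood far above A as well as C, and C was lowest. Of 15 heat shock genes 9 were lower in C, with a median of -0.50, whereas at 12 against 24 months 3 rose, none fell (6 at an unadjusted p under 0.05 with edgeR, and 5 rises and 1 fall with DESeq2), and Hspa1a was at 0.52 ± 0.74 (SE, adjusted p = 0.72).

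The 12 lowest in C outside the clock lists, ranked likewise, were Hspa1a, Hspa1b, Nox1, Cldn8, Cyr61, Mcm5, E2f7, Ifitm3, E2f8, Klf2, Rpl35a-ps2 and Arc. Nox1, the epithelial NADPH oxidase, had 31.6, 36.4 and 15.7 CPM in colon A, B and C, 3.46, 13.8 and 2.84 in the USI, and 4.09, 19.4 and 1.11 in the LSI, so that in the small intestine B stood far above A. Of the 12, Nox1 and Ifitm3 fell at 12 against 24 months, by 1.46 ± 0.32 (SE, adjusted p = 0.0218) and 0.58 ± 0.16 on the log2 scale (adjusted p = 0.0479), whereas Cyr61, Klf2 and Arc rose. Ifitm3 passed in 9 and Nox1 in 20 of 27 alternative settings. Rpl35a-ps2 is a pseudogene that may share reads with its parent gene.

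Immediate early genes, a class induced quickly by growth factors and by tissue dissociation, did not keep their direction between the comparisons. At 4 months 7 of 23 were lower and 2 higher in C, whereas 11 rose and none fell at 12 against 24 months (DESeq2 called 1 fall). Cyr61, a target of YAP, had 32.6, 43.9 and 21.1 CPM in colon A, B and C, 106, 81.2 and 37.9 in the USI, and 61.9, 40.1 and 21.0 in the LSI, but rose by 1.72 ± 0.26 (SE, adjusted p = 0.00373) at 12 months. Klf2, a zinc-finger factor, differed by -0.81 ± 0.14 at 4 months and 1.40 ± 0.26 (SE) between the ages, and Arc by -0.88 ± 0.21 and 1.66 ± 0.31. In both genes C was below A and B at 4 months, while the 12-month libraries were above those of 24 months.

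Genes of immune cells and of interferon set the colon apart from the small intestine. The 10 markers of T cells and intraepithelial lymphocytes summed to 320 CPM in USI C against 19.9 and 16.0 in USI A and B, and to 337 CPM in LSI C against 108 and 55.8. In the colon they summed to 29.0, 28.1 and 21.2 CPM in A, B and C. Cd8a, a receptor of cytotoxic T cells, had 1.94, 0.880 and 32.0 CPM in the USI and 3.78, 4.68 and 2.49 CPM in the colon. Of 33 interferon-response genes 31 were above the mean of A and B in the USI and 31 in the LSI, but none in the colon, where the median was -1.18 against 1.32 and 1.02. None of the 33 passed between the ages (7 at an unadjusted p under 0.05 with edgeR, 2 falls with DESeq2), and 3 of the 10 lymphocyte markers rose. The class II antigen presentation gene Cd74 had 198, 157 and 15.5 CPM in colon A, B and C, 292, 794 and 756 in the USI, and 1345, 1502 and 2327 in the LSI. Whether lymphocytes or interferon took part in the enterocyte and transporter differences was not tested. The medians of the enterocyte and transporter lists were 1.02 and 0.61 in the colon, 3.51 and 2.36 in the USI, and 2.39 and 1.72 in the LSI. In the colon some of their members, such as Apoa4 and Slc2a2, were near the floor.

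**Figure D5:**
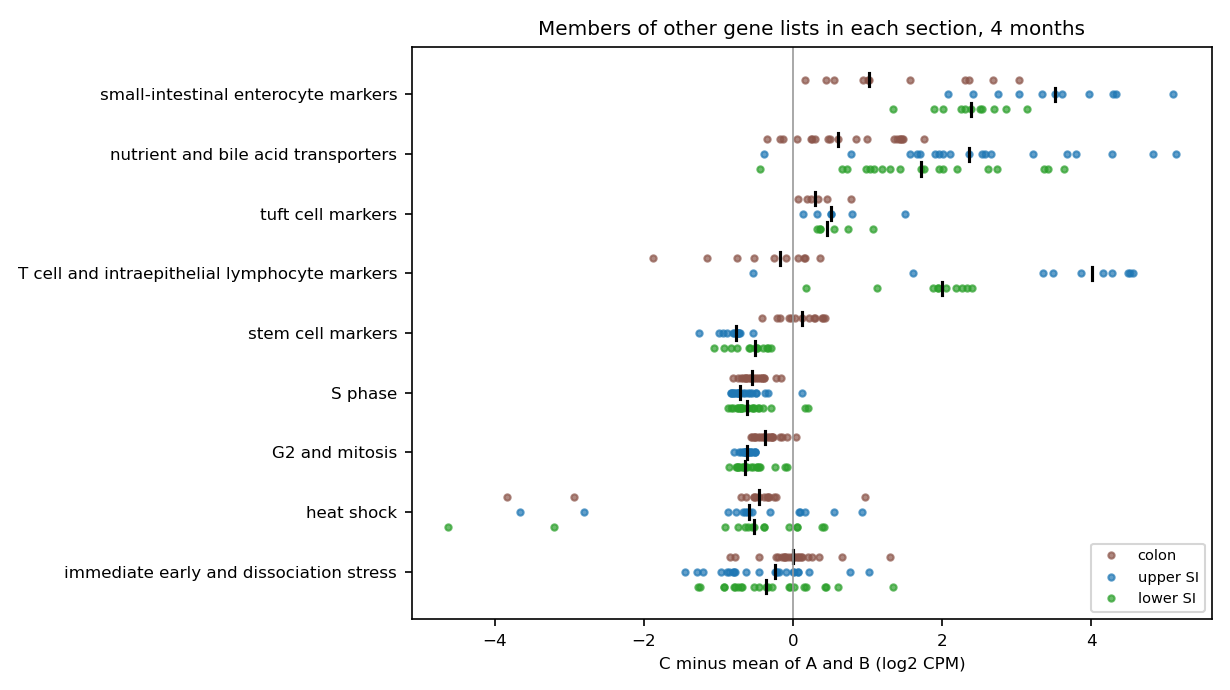
Difference in log2 CPM between replicate C and the mean of A and B at 4 months for the members of 9 gene lists, with a point per gene, colours for the sections and a black mark at the median of each section. The cell cycle lists have medians between -0.37 and -0.71 in all sections, whereas the lymphocyte markers have a median of -0.18 in the colon and 4.01 in the USI.

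Without colon B and LSI C the counts of higher and lower genes were 8 and 0 of 10 clock repressors, 11 and 0 of 11 enterocyte markers, 16 and 1 of 19 transporters, 0 and 20 of 21 S phase genes, 0 and 20 of 21 genes of G2 and mitosis, and 1 and 10 of 15 heat shock genes. Leaving out LSI C takes the whole LSI out of the count, so that colon C against colon A and the USI remain. A gene called in every section stays called with fewer libraries, so these counts could not fall and do not check the labels. Erythrocyte markers summed to 4.94 to 10.6 CPM in the C and 0.771 to 7.87 CPM in the A and B libraries, and markers of macrophages and dendritic cells to 5.23 to 24.2 and 4.43 to 24.7 CPM. Markers of B and plasma cells were highest in the LSI, where they summed to 53.2, 79.8 and 50.5 CPM in A, B and C. Mitochondrial transcripts made up 12.3% to 14.9% of counts in C and 10.4% to 13.9% in A and B.

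Of the 2535 genes higher in C, 199 rose at 12 against 24 months, which is 7.85% of these genes and 36.2% of the 550 that rose, and 13 fell. Of the 3084 lower in C, 180 fell, which is 5.84% of these and 49.6% of the 363 that fell, and 25 rose. No test of these overlaps was run.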

How the data were processed

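Each library's deposited table gives raw read counts for 37681 genes of the mouse build mm9, which the authors made with featureCounts 2.0.0 per the file headers, without strand and counting both reads of a pair, so that overlapping antisense genes cannot be told apart and counting error is understated. TopHat2, HTSeq and Cuffdiff appear in the submitters' processing notes, and trimmomatic, STAR and edgeR in the paper. The counts were used as deposited.

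Counts were scaled with TMM factors (0.914 to 1.13) over all 24 libraries in edgeR 4.0.16 (R 4.3.3), and 17491 genes passed filterByExpr. At 4 months, log2 CPM (prior count 2) of C minus the mean of A and B was taken within sections. For 12 against 24 months, 15 libraries in 6 groups were fitted with 9 residual degrees of freedom and a biological coefficient of variation of 15.4%, and tested at an adjusted p under 0.05. Named genes were the members of the 5 clock lists (41 genes), the 12 highest and 12 lowest others called in every section at a mean log2 CPM of at least 2, and up to 4 members with the widest difference of a list described. Olfm4, Sis, Car1, Fabp6 and the genes with called changes in the closing section, the omission of colon B and LSI C and the interaction test were chosen after values were seen. The members and the 35 lists were chosen with earlier results of these data known. Promoters came from RefSeq, which matched 32 of the 41 clock-list genes. The steps were tested on simulated counts. Alternatives were other scalings, filters, tests and blocks, DESeq2 1.42.0, limma 3.58.1 and the omission of libraries. Figures were drawn with matplotlib. DNA methylation was not analysed here. A few list members are counted with their lists, but their own values are not reported here.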

Additional observations from a re-analysis of the deposited data

Results flagged for a closer look

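For 10 clock-list genes the C library lay above both A and B in at least 1 section and below both in another. These opposite signs were not tested at 4 months, and none of the genes passed the section-by-age interaction between 12 and 24 months. Cry1 had a difference in log2 CPM of -0.51 in the colon, 0.87 in the USI and 0.20 in the LSI. Clock had -0.30 in the colon and 0.17 in the LSI. Arntl2, a relative of Arntl at 0.478 to 1.73 CPM, had 0.17 in the colon, -1.23 in the USI and -0.88 in the LSI. Nampt, an enzyme of NAD synthesis, had -0.24 in the colon, 0.77 in the USI and 0.62 in the LSI. Wee1, a kinase that delays mitosis, had 0.31, -0.37 and -0.44. The kinase gene Csnk1e had 0.13, -0.66 and -0.31, and Gsk3b had -0.079, -0.036 and 0.11. The ligase gene Fbxw11 had -0.20, -0.037 and 0.072. Tsc22d3, a glucocorticoid-induced gene, had -0.39, 0.15 and 0.25, and Tspan4 had -0.17, 0.17 and -0.37.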

How the results depend on the processing

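The counts of 2535 higher and 3084 lower genes at 4 months became 193 and 18 with a difference of at least 1 in each section, 4112 and 4886 against B alone, 3870 and 4992 without colon B and LSI C, 6701 and 6335 in the colon alone, and 4474 and 5365 in the USI and LSI alone. Leaving out 1 library at a time gave 2670 to 4474 and 3198 to 5365, with the highest counts without colon C. A section without its C library is left out as a whole. Counts from fewer libraries or sections keep every call of the main count and can only add to it. The 550 and 363 genes of the 12 against 24 months comparison became 356 and 162 with the letter as a replicate block, 243 and 185 with the letter as a random block in voom, and 25 and 16 with counts summed over the sections of a letter. They became 1184 and 591 with edgeR's likelihood ratio test, 1207 and 648 with DESeq2, 124 and 58 with all 24 libraries, 45 and 23 without the 24-month B libraries, and 122 and 55 at an adjusted p under 0.01. Leaving out 1 library gave 205 (without USI 24-month B) to 899 (without LSI 24-month A) higher and 92 (without LSI 24-month B) to 641 lower genes. For these counts the cause was not tested. In the replicate block fit none of the 11 enterocyte markers, 4 of the 19 transporters and 1 of the 15 heat shock genes rose, against 4, 7 and 3. The labels do not say what a letter marks. Deviations of same-letter libraries across sections correlated at 0.232 to 0.658 for B and C and at 0.039 to 0.166 for A at 4 months, and at -0.040 to 0.259 at 12 months, so that not every pair reached 0.1, and at -0.067 to 0.136 between 12 and 24 months. Among named genes no called direction reversed. At 4 months a call cannot reverse when libraries are left out, because C lies beyond both A and B in every section. Values without a call crossed 0, such as Cry1 at 4 months (-0.51 to 0.54) and Hspa1a between the ages (-0.42 to 2.01). Of the alternative values of named genes between the ages 1604 kept their side of the threshold, 130 lost it and 13 gained it. Arntl, Npas2, Nr1d2, Per1, Per3 and Gm129 passed under every alternative run.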

Other observations

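Of 20 genes of the unfolded protein response, 1 was higher and 3 lower in C, whereas 7 rose and 2 fell at 12 against 24 months (quasi-likelihood test in edgeR, adjusted after Benjamini and Hochberg). Herpud1, a component of degradation at the endoplasmic reticulum, overlapped at 4 months with a difference of 0.08 ± 0.19 and rose by 0.97 ± 0.09 (SE, adjusted p = 0.000126) at 12 months. Chac1, a glutathione-degrading enzyme, overlapped with 0.40 ± 0.14 and rose by 1.64 ± 0.20 (adjusted p = 0.000639). Of 13 glucocorticoid-response genes 3 were higher and 1 lower in C, and 5 rose between the ages, Per1 among them. Klf9, a transcription factor of this response, had -0.07 ± 0.12 at 4 months and rose by 0.44 ± 0.07 (SE, adjusted p = 0.00431).

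None of 19 genes of cholesterol synthesis was called in C, although 8 were lower with library totals alone, and 4 fell at 12 months. Of 7 colonocyte markers 3 were higher in C, among them Slc26a3, the chloride exchanger of the colon, by 0.94 ± 0.25, and Aqp8, a water channel, overlapped at 4 months but fell between the ages by 1.65 ± 0.28 on the log2 scale (SE, adjusted p = 0.00687). Of 10 general epithelial markers 2 were higher and 2 lower in C. Of the 3 cold-inducible genes 2 were higher, with Cirbp, an RNA-binding protein, at 0.40 ± 0.13, but with library totals alone 0 were. Among 9 antimicrobial and oxidase genes and 8 genes of class II presentation, 0 and 1 were higher and none lower. Markers of B and plasma cells, nerve and erythrocytes overlapped throughout, 1 of 10 fibroblast and muscle markers and 1 of 9 macrophage and dendritic cell markers were lower, and 1 of 4 endothelial markers was higher in C.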
